A study of Mus musculus with 9 samples.

Results

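The genes described here are 49 genes of mitosis and of the spindle checkpoint, measured by RNA sequencing in RAW264.7 cells, a mouse macrophage-like tumour line that divides in culture. They were taken as a list of gene symbols fixed by function, with no kinesin gene but Cenpe on it. All 49 were found among the 43629 genes listed, and all 49 passed the filter on low values, which left 14808 genes to test. The cells were treated with lipopolysaccharide and sodium butyrate (LPS+NaBu), with lipopolysaccharide alone (LPS), or left as controls, with 3 libraries in each of the 3 groups. Lipopolysaccharide is a bacterial cell wall component that activates macrophages, and butyrate is a short-chain fatty acid made by gut bacteria that inhibits histone deacetylases. The labels give no dose or time, cells with butyrate alone were not analysed here, and the labels do not say whether the libraries of a group came from separate cultures, so a p-value here reflects library-to-library scatter that could be technical. All cells came from 1 cell line, which limits the groups as a model of liver or tissue macrophages.

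Mitosis is driven by the kinase Cdk1 and its cyclins. As chromosomes condense and attach to the spindle, the spindle checkpoint holds back the anaphase-promoting complex (APC/C), a ubiquitin ligase, until every kinetochore is attached, and the ligase then destroys securin and the B-type cyclins so that sister chromatids part. Many of the genes for these steps are transcribed together late in the cell cycle by the factors Foxm1 and B-Myb (gene Mybl2) with the MuvB complex, and their messages are low in cells that have left the cycle. In bulk RNA, fewer cells in late cycle phases and less message per cell cannot be told apart.

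Library depth was 37625419 to 64380392 gene reads. The values are normalised counts, which are reads per gene divided by 1 size factor per library, and in units of 1e+06 their sum was 43.1 to 44.3 in LPS+NaBu libraries, 52.5 to 53.4 in LPS libraries and 45.0 to 45.5 in control libraries. The 10 macrophage markers examined, among them Csf1r, Spi1 and Cd68, were all expressed. Their summed level was 219494 to 237611 in LPS+NaBu libraries, 656278 to 693145 in LPS libraries and 474322 to 491935 in control libraries, and all 10 were lower in LPS+NaBu than in LPS cells. The summed level of 7 fibroblast markers was 272 to 296 in LPS+NaBu libraries, 13.0 to 18.8 in LPS libraries and 6.36 to 12.1 in control libraries, and that of 4 hepatocyte markers, of which 3 were at 0 in every library, was at most 7.26. Of the fibroblast markers 4 passed the filter on low values, and all 4 were higher in LPS+NaBu than in LPS cells. With fibroblast sums this low in LPS and control libraries, these 4 passed mainly through their LPS+NaBu values. The filter thus largely set their direction in advance. Summed T cell markers were 225 to 238 in LPS+NaBu libraries, 1302 to 1474 in LPS libraries and 435 to 486 in control libraries. The summed B cell, neutrophil and endothelial markers were each at most 112 in any library and lowest in control libraries. The mitochondrial share of the counts was 2.05 to 2.16% in LPS+NaBu libraries, 1.36 to 1.46% in LPS libraries and 2.06 to 2.27% in control libraries, and the number of genes with a value of at least 10 was 14405 to 14540 in LPS+NaBu libraries, 13447 to 13720 in LPS libraries and 13284 to 13532 in control libraries. The part of these shifts in the results below was not tested.

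The mitosis genes were lowest in LPS+NaBu cells. Together they held 0.159% ± 0.0035 of all normalised counts in LPS+NaBu libraries, 0.376% ± 0.012 in LPS libraries and 0.668% ± 0.0063 in control libraries (SD, n = 3 each). This share depends on the library sums, which were largest in LPS libraries. The summed normalised counts of the genes were 69051 to 70070 in LPS+NaBu, 194067 to 205768 in LPS and 300656 to 303525 in control libraries. Against LPS cells, all 49 genes fell in LPS+NaBu cells, where 37.8% of the 14808 genes tested were called lower and 40.2% higher (adjusted p under 0.05). The fall was at least 2-fold for 41 of the 49, against 16% of all genes tested. The median log2 change of the mitosis genes was -1.75, beside 0.02 over all genes tested, and the single changes ran between -3.64 for Fbxo5 and -0.40 for Bub3. The largest adjusted p among the 49 was 1.63e-06, for Bub3. The APC/C inhibitor Fbxo5, the mitotic regulator Fam64a, Ccna2, Cdc20, Nuf2, Plk1, Foxm1 and Mybl2 fell most.

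Against control cells the falls in LPS+NaBu cells were deeper. All 49 genes were called lower, where 35.1% of all genes tested were lower and 40.9% higher, and 47 fell at least 2-fold, against 13.5% of all genes tested. The median log2 change was -2.38, beside 0.09 over all genes tested, with a range of -4.54 for Fbxo5 to -0.57 for Bub3. Only Pttg1 and Bub3 fell by less than 2-fold. The 3 comparisons share libraries with each other, so their counts are not independent.

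In LPS cells most of the list stood below control cells, by a smaller amount. Of the 49 genes, 46 were called lower in LPS than in control cells, 1 was higher (Pttg1) and 2 were not called (Plk4 and Cenpe), where 30.8% of all genes tested were lower and 25.2% higher. The fall reached 2-fold for 3 genes, Ncapd2, Racgap1 and Aurkb, against 6.02% of all genes tested, and the median log2 change was -0.59, beside -0.05 over all genes tested. Racgap1 and Aurkb passed this cut narrowly, and with other processing their log2 changes came as low in size as -0.986 and -0.979. For 46 of the 49 genes every LPS+NaBu library lay below every LPS library and every LPS library below every control library, an order found in 9.71% of all genes tested. The exceptions were Plk4, Cenpe and Pttg1.

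**Figure D1:**
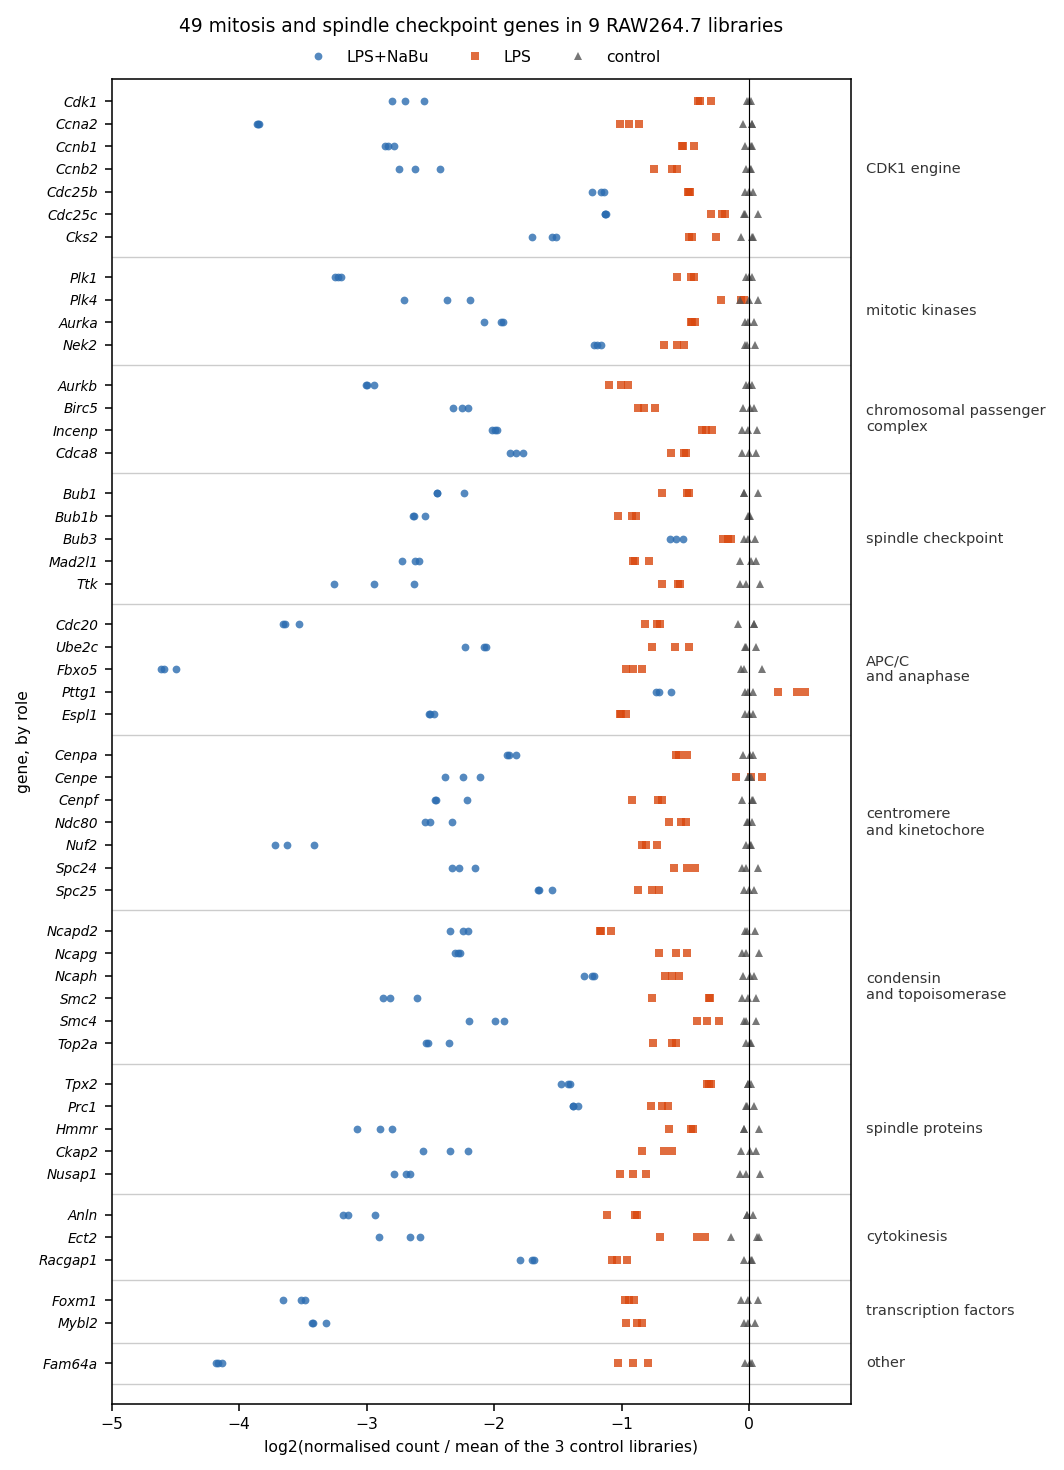
Each row is 1 of the 49 genes, grouped by role, and each point is 1 library, placed on the horizontal axis by the log2 ratio of its normalised count to the mean of the 3 control libraries (circles, LPS+NaBu; squares, LPS; triangles, control). Circles lie left of squares in every row, and squares lie left of triangles in all rows but those of Plk4, Cenpe and Pttg1.

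**Figure D2:**
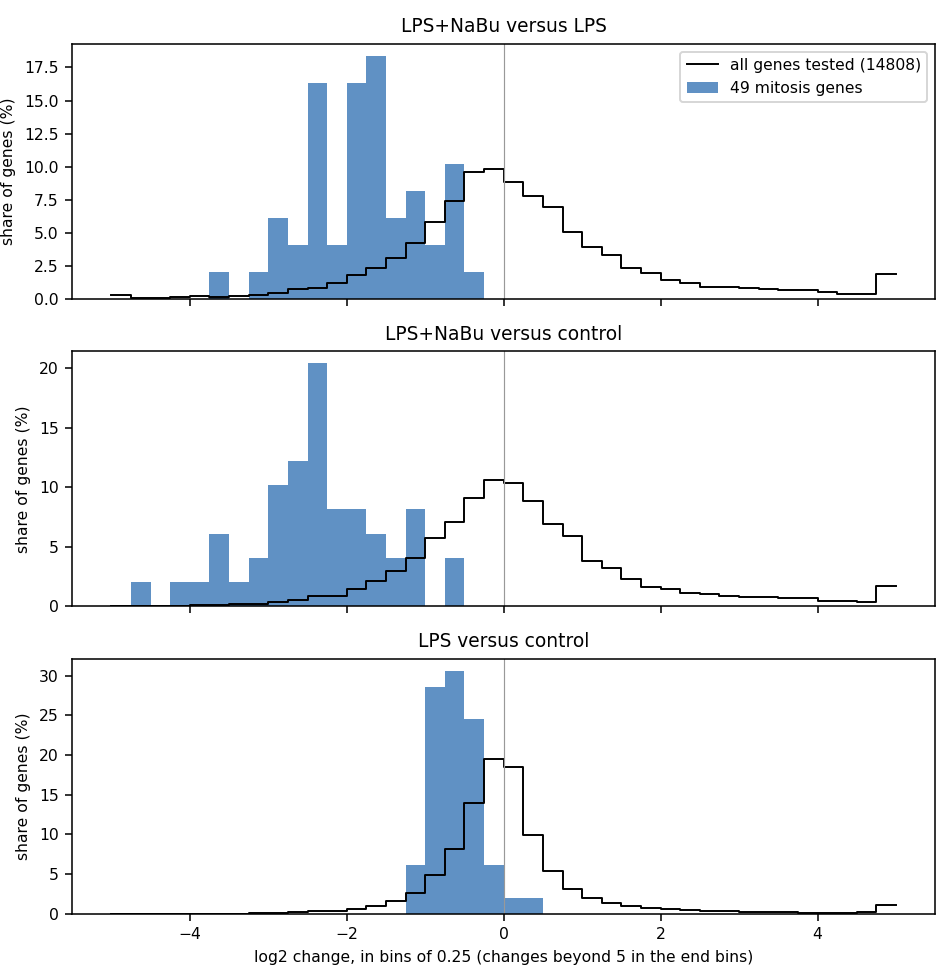
Blue bars give the share of the 49 mitosis genes, and the black line the share of the 14808 genes tested, in each bin of log2 change, for LPS+NaBu against LPS, LPS+NaBu against control and LPS against control. The mitosis genes centre on -1.75, -2.38 and -0.59, and all genes tested on 0.02, 0.09 and -0.05.

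The size of the LPS comparison depended on how the libraries were scaled. With libraries scaled to the same sum in place of median-of-ratios size factors, the log2 changes of all genes tested shifted. The median shift over these genes was 0.28 for LPS+NaBu against LPS and -0.23 for LPS against control. With that scaling 7417 genes were higher and 4132 lower in LPS+NaBu than in LPS cells, beside 5956 and 5602 in the main analysis, and 2273 were higher and 7074 lower in LPS than in control cells, beside 3739 and 4568. All 49 mitosis genes stayed lower in LPS+NaBu than in LPS cells, with a median of -1.48, and 48 were lower in LPS than in control cells, with a median of -0.82.

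Because these genes moved together, their promoters were searched for a pair of short motifs that are known from mouse and human cells at late cell cycle promoters. The first is the CHR element (TTTGAA or TTTAAA), to which the MuvB complex binds, and the second is the CCAAT box (CCAAT), to which the factor NF-Y binds. Both were counted on both strands, so that TTCAAA and ATTGG were counted too, and each motif was counted on its own, whether or not it shared a letter at its edge with the other. RefSeq promoter sequences of build GRCm38.p6 run from 250 bases before to 50 bases after the transcription start. Only the 250 bases before the start were searched. The sequences matched 40 of the 49 genes with 43 promoters, and Ccna2, Cdc25c, Aurkb, Incenp, Spc24, Smc4, Tpx2, Foxm1 and Fam64a were not matched. A CHR element lay in 48.8% of the 43 promoters and in 25.2% of all 32851 promoters. A CCAAT box lay in 76.7% of the 43 and in 33.9% of all, at least 2 CCAAT boxes in 48.8% and 10.1%, and both motifs together in 44.2% and 8.78%. Among the 12647 promoters of genes tested, 17.6% had a CHR element and 35.1% a CCAAT box. Within 100 bases of the start, a CHR element lay in 25.6% of the 43 and in 9.71% of all.

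The 100 bases just before the start are shown for 10 genes, in lower case with CHR elements and CCAAT boxes in capitals, 5′ to 3′ on the strand of the gene. Cdk1, at chr10:69352913-69353012 (minus strand), Ccnb1, at chr13:100786487-100786586 (minus strand), and Plk1, at chr7:122159335-122159434 (plus strand), are the central kinases and cyclin. Cdc20, at chr4:118437344-118437443 (minus strand), Ube2c, at chr2:164769829-164769928 (plus strand), and Top2a, at chr11:99024190-99024289 (minus strand), are chosen as genes with both motifs close together. Fbxo5, at chr10:5805466-5805565 (minus strand), and Bub3, at chr7:131560270-131560369 (plus strand), are the genes with the deepest and the shallowest fall, and Cenpe, at chr3:135212463-135212562 (plus strand), and Pttg1, at chr11:43425982-43426081 (minus strand), are genes that did not fall in LPS cells.
Cdk1: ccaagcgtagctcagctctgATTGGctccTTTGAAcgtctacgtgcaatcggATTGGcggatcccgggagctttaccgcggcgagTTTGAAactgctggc
Ccnb1: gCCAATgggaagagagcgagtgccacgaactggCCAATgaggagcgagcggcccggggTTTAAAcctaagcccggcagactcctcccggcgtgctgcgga
Plk1: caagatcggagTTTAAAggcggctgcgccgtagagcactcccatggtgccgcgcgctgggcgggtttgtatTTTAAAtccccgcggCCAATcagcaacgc
Cdc20: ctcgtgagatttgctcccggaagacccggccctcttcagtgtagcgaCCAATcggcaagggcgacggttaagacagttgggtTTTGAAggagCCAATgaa
Ube2c: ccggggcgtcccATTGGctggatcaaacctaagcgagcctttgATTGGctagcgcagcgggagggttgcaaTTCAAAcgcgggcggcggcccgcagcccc
Top2a: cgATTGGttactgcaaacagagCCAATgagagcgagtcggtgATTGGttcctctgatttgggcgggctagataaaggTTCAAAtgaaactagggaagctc
Fbxo5: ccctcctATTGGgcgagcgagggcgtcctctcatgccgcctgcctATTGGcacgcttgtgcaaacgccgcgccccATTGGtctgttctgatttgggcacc
Bub3: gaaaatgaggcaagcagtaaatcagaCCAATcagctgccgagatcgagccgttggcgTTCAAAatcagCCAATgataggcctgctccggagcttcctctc
Cenpe: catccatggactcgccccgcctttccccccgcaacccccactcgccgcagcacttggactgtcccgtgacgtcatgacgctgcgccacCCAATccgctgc
Pttg1: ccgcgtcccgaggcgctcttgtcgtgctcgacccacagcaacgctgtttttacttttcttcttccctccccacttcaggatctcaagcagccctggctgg

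The shown windows of Cdk1, Ccnb1, Plk1, Cdc20, Ube2c and Top2a carry both motifs. So does the shown window of Bub3, the gene with the shallowest fall. Bub3 has a second start in the table, and the 100 bases before that one (chr7:131560394-131560493, plus strand) hold neither motif. The window of Fbxo5, the gene with the deepest fall, carries CCAAT boxes and no CHR letters. The window of Pttg1 carries neither motif. However, the starts used for Pttg1, Top2a and Bub3 do not match the RefSeq start of the gene. Their windows may thus not lie before the main start, and the Pttg1 window cannot show that its promoter lacks the motifs. The same limit holds for further promoters in the shares above and the medians below, among them those of Anln, Aurka and Mybl2. Among the 40 matched genes, the 19 with a CHR element had a median log2 change of -1.70 in LPS+NaBu against LPS cells and the 21 without had -1.78. Against control cells the medians in LPS+NaBu cells were -2.42 with the element and -2.38 without, and in LPS cells they were -0.60 and -0.59. A match of letters is a description of the sequence and not a binding site.

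The Cdk1 engine comprised 7 genes, and all 7 fell in LPS+NaBu cells against both other groups, by a median log2 change of -1.96 against LPS. Cdk1, the kinase that starts mitosis, had normalised counts of 946, 1129 and 1015 in LPS+NaBu libraries, 5061, 5007 and 5362 in LPS libraries and 6663, 6585 and 6539 in control libraries. The level in LPS+NaBu cells was 20.0% of that in LPS cells, a log2 change of -2.32 ± 0.060 (SE, adjusted p = 1.29e-12), and the change in LPS against control cells was -0.36 ± 0.060 (adjusted p = 2.09e-04). The 3 groups did not overlap. Ccnb1, the B-type cyclin that activates Cdk1, had 1034, 1004 and 988 in LPS+NaBu libraries, 4969.6, 4985 and 5303 in LPS libraries and 7200.2, 7244 and 6977 in control libraries, and its log2 change was -2.33 ± 0.045 in LPS+NaBu against LPS cells (adjusted p = 1.24e-13) and -0.49 ± 0.045 in LPS against control cells (adjusted p = 8.88e-07). Ccna2, the cyclin that acts earlier, in S phase and at mitotic entry, fell further. Its normalised counts were 296, 294 and 294 in LPS+NaBu libraries, 2212, 2113 and 2335 in LPS libraries and 4109.7, 4330.5 and 4333 in control libraries, with log2 changes of -2.91 ± 0.056 against LPS and -3.85 ± 0.056 against control in LPS+NaBu cells, and -0.94 ± 0.056 in LPS against control cells. Its LPS+NaBu libraries were nearly equal. The other 4 genes changed by -1.96 (Ccnb2), -1.19 (Cks2, a small Cdk-binding protein), -0.89 (Cdc25c) and -0.71 (Cdc25b) in LPS+NaBu against LPS cells. Cdc25b and Cdc25c encode phosphatases that remove the inhibitory phosphates of Cdk1. Cdc25a, the related phosphatase outside the 49 genes, changed by -2.46 ± 0.053 in LPS+NaBu against LPS cells (adjusted p = 2.67e-13), while in LPS against control cells it was higher (0.43 ± 0.053, adjusted p = 1.17e-05).

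Among the other mitotic kinases, Plk1 and Plk4 fell by more than Aurka and Nek2. Plk1, which acts at mitotic entry, on the spindle and in cytokinesis, had normalised counts of 584, 568 and 576 in LPS+NaBu libraries, 3642, 3937 and 4004 in LPS libraries and 5396, 5289 and 5472 in control libraries. It stood at 14.9% of the LPS level in LPS+NaBu cells, with log2 changes of -2.74 ± 0.050 against LPS (adjusted p = 7.60e-14) and -0.48 ± 0.050 in LPS against control cells (adjusted p = 2.64e-06). Plk4, the kinase that starts centriole duplication, showed no called change under LPS alone. Its values were 218, 173 and 248 in LPS+NaBu libraries, 1082, 971 and 1096 in LPS libraries and 1185, 1073 and 1129.6 in control libraries. All LPS+NaBu libraries were below all others (log2 change -2.31 ± 0.11, adjusted p = 6.14e-10), whereas the LPS and control libraries overlapped (log2 change -0.11 ± 0.11, adjusted p = 0.461). With libraries scaled to the same sum, Plk4 was called lower in LPS than in control cells (log2 change -0.33, adjusted p = 0.0269). Aurka, a centrosome and spindle kinase, changed by -1.54 ± 0.048 in LPS+NaBu against LPS cells and by -0.44 ± 0.048 in LPS against control cells, and Nek2, which acts in centrosome separation, by -0.61 ± 0.050 and -0.58 ± 0.050.

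The chromosomal passenger complex corrects faulty attachments of chromosomes to the spindle, and all 4 of its genes fell in each comparison. Aurkb, its kinase, had normalised counts of 761, 735 and 732 in LPS+NaBu libraries, 2735, 2917 and 3029 in LPS libraries and 5875, 5751 and 5954 in control libraries. The log2 change was -1.96 ± 0.051 in LPS+NaBu against LPS cells (adjusted p = 1.23e-12) and -1.02 ± 0.051 in LPS against control cells (adjusted p = 1.78e-09). Each step down was thus at least 2-fold in the main analysis, that in LPS against control cells only narrowly. The scaffold Incenp, by contrast, changed by -1.67 ± 0.043 in LPS+NaBu against LPS cells and by -0.33 ± 0.043 in LPS against control cells. Birc5 (survivin) changed by -1.45 and -0.81 in the same order of comparisons, and Cdca8 (borealin) by -1.29 and -0.54.

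The spindle checkpoint genes all fell in LPS+NaBu and in LPS cells, but Bub3 by the least of the whole list in LPS+NaBu cells. Ttk, the kinase at the head of the checkpoint, had normalised counts of 240.0, 298 and 370.1 in LPS+NaBu libraries, 1574, 1423 and 1554 in LPS libraries and 2255, 2433 and 2175 in control libraries. Its LPS+NaBu libraries were the most scattered of any of the 49 genes, with a coefficient of variation of 21.5%, yet all lay far below every LPS library, and the log2 change was -2.34 ± 0.12 against LPS (adjusted p = 9.56e-10). Bub1, a checkpoint kinase at the kinetochore, had 1689, 1694 and 1961 in LPS+NaBu libraries, 6661, 5749 and 6597 in LPS libraries and 9006, 9685 and 9002 in control libraries, with log2 changes of -1.83 ± 0.070 in LPS+NaBu against LPS cells (adjusted p = 4.70e-11) and -0.55 ± 0.070 in LPS against control cells (adjusted p = 2.01e-05). Bub1b (BubR1) binds and restrains Cdc20. It had 1421, 1516 and 1431 in LPS+NaBu libraries, 4782, 4337 and 4686 in LPS libraries and 8849, 8865 and 8801 in control libraries, and both steps were clear, -1.66 ± 0.048 in LPS+NaBu against LPS cells and -0.94 ± 0.048 in LPS against control cells (adjusted p = 2.45e-09). Mad2l1 (Mad2), which forms the inhibitory complex with Cdc20 and BubR1, changed by -1.78 ± 0.062 and -0.86 ± 0.062 in the same comparisons. Bub3 is the adaptor of Bub1 and BubR1. It had 6393, 6140.0 and 5953 in LPS+NaBu libraries, 7948, 8322 and 8146 in LPS libraries and 9451, 8901 and 9117 in control libraries. Its level in LPS+NaBu cells was 75.7% of that in LPS cells (log2 change -0.40 ± 0.043, adjusted p = 1.63e-06), and the 3 groups still did not overlap.

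Genes of the anaphase switch held both the deepest fall and the main exception. Fbxo5 (Emi1), the inhibitor of the APC/C during S and G2 phase, had normalised counts of 70.8, 75.8 and 69.8 in LPS+NaBu libraries, 952, 874 and 909.5 in LPS libraries and 1631, 1830.2 and 1658 in control libraries. These rest on 103, 68 and 77 reads in the LPS+NaBu libraries, the fewest of any of the 49 genes. The level in LPS+NaBu cells was 7.91% of the LPS level and 4.23% of the control level, with log2 changes of -3.64 ± 0.084 (adjusted p = 4.63e-13) and -4.54 ± 0.084 (adjusted p = 7.70e-14). Cdc20, the APC/C activator that the checkpoint inhibits, had 466, 425 and 429.9 in LPS+NaBu libraries, 3054, 3316 and 3255 in LPS libraries and 5531, 5055 and 5526 in control libraries, with log2 changes of -2.86 ± 0.059 in LPS+NaBu against LPS cells (adjusted p = 1.99e-13) and -0.74 ± 0.059 in LPS against control cells (adjusted p = 2.07e-07). The groups were far apart for both genes. Ube2c, the ubiquitin-conjugating enzyme of the APC/C, changed by -1.52 ± 0.071 and -0.60 ± 0.071 in these comparisons.

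Securin and separase, the inhibitor and the protease that cuts cohesin at anaphase, moved in opposite directions under LPS alone. Pttg1 (securin) had normalised counts of 1134, 1232 and 1152 in LPS+NaBu libraries, 2209, 2553 and 2446 in LPS libraries and 1929, 1846 and 1877 in control libraries, so that every LPS library was above every control library (log2 change 0.35 ± 0.062, adjusted p = 3.50e-04) and every LPS+NaBu library was below both (log2 change -1.03 ± 0.062 against LPS, adjusted p = 4.32e-09; -0.68 ± 0.062 against control, adjusted p = 3.26e-07). The rise in LPS cells kept its sign but was not called with libraries scaled to the same sum (log2 change 0.12, adjusted p = 0.0939). Espl1 (separase) had 1515, 1469 and 1477 in LPS+NaBu libraries, 4188, 4163 and 4299 in LPS libraries and 8216, 8381 and 8565 in control libraries. Its log2 change was -0.99 ± 0.041 in LPS against control cells (adjusted p = 2.93e-10) and -1.50 ± 0.041 in LPS+NaBu against LPS cells (adjusted p = 2.07e-12).

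**Figure D3:**
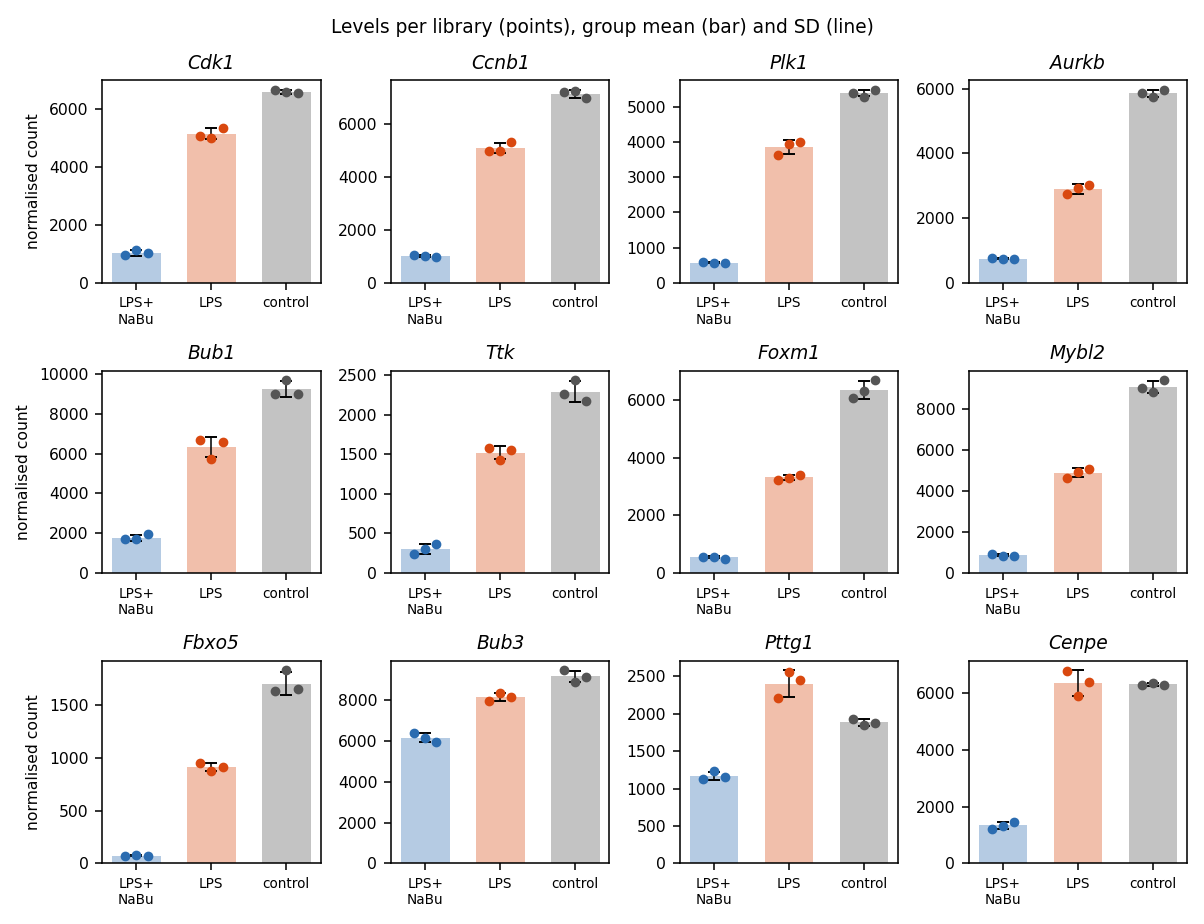
Normalised counts of 12 genes, where points are libraries, bars are group means and lines are SDs (n = 3 libraries a group), on linear axes that start at 0, for LPS+NaBu, LPS and control cells. In all 12 panels the LPS+NaBu bar is lowest, and Pttg1 is the gene whose LPS libraries lie above its control libraries.

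At the centromere and kinetochore, the protein platform that holds spindle microtubules, all 7 genes fell in LPS+NaBu cells, and the estimates for the subunits of 1 complex were spread widely. Nuf2, a microtubule-binding subunit of the Ndc80 complex, had normalised counts of 307, 355 and 288 in LPS+NaBu libraries, 2159, 2113 and 2296 in LPS libraries and 3827, 3817 and 3718 in control libraries, with a log2 change of -2.79 ± 0.073 in LPS+NaBu against LPS cells (adjusted p = 1.44e-12). The other 3 subunits changed by -1.90 ± 0.064 (Ndc80), -1.75 ± 0.070 (Spc24) and -0.83 ± 0.062 (Spc25). Spc25 shares 47.4% of the exon bases of its main transcript with Nostrin on the opposite strand, and although the libraries were made with a directional kit, the sources used here do not say whether reads were counted by strand. Cenpe, a kinesin motor that moves chromosomes to the spindle middle, had 1209, 1332 and 1459 in LPS+NaBu libraries, 6769, 5882 and 6388 in LPS libraries and 6291, 6364 and 6262 in control libraries. Its LPS libraries lay on both sides of the control libraries (log2 change 0.007 ± 0.068, adjusted p = 0.943), while all LPS+NaBu libraries lay far below both (log2 change -2.25 ± 0.068 against LPS, adjusted p = 4.72e-12). With libraries scaled to the same sum, the sign for Cenpe turned and it was called lower in LPS than in control cells (log2 change -0.22, adjusted p = 0.0208). Cenpa, the histone variant that marks centromeres, changed by -1.33 in LPS+NaBu against LPS cells and Cenpf, a large kinetochore protein, by -1.60, and in LPS against control cells by -0.54 and -0.77.

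Condensin I compacts mitotic chromosomes, and its 5 genes fell by unequal amounts in LPS+NaBu against LPS cells. The changes were -2.30 ± 0.11 for Smc2 and -1.71 ± 0.069 for Smc4, the ATPases shared with condensin II, and -1.70 ± 0.063 for Ncapg, -1.13 ± 0.049 for Ncapd2 and -0.64 ± 0.047 for Ncaph, which belong to condensin I alone. Ncapd2 had the largest fall of all 49 genes in LPS against control cells. Its normalised counts were 2171, 1979 and 2118 in LPS+NaBu libraries, 4453, 4484 and 4748 in LPS libraries and 9928, 9807 and 10359 in control libraries. The log2 change was -1.14 ± 0.049 in LPS against control cells (adjusted p = 3.91e-10), close to the -1.13 in LPS+NaBu against LPS cells. That closeness depended on the processing, since the alternatives gave -1.36 to -1.10 and -1.23 to -0.85 for these comparisons. Smc2 showed the widest spread among LPS libraries (coefficient of variation 16.9%), with 5946, 4366 and 5964 normalised counts, the low value being that of LPS replicate 2. Top2a, the topoisomerase that untangles sister chromatids, was among the most abundant of the list and had 4105, 4164 and 4670.4 in LPS+NaBu libraries, 15701, 14148 and 15980.1 in LPS libraries and 23424, 24116 and 23915 in control libraries. Its log2 change was -1.82 ± 0.058 in LPS+NaBu against LPS cells (adjusted p = 7.71e-12) and -0.64 ± 0.058 in LPS against control cells (adjusted p = 6.97e-07).

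Genes for spindle proteins also fell throughout, Prc1 and Tpx2 least in LPS+NaBu against LPS cells. Tpx2, the activator of Aurora A on the spindle, changed by -1.12 ± 0.038 in LPS+NaBu against LPS cells and -0.31 ± 0.038 in LPS against control cells, and Prc1, which bundles microtubules of the central spindle, by -0.67 ± 0.046 and -0.69 ± 0.046. The microtubule-binding proteins Hmmr, Nusap1 and Ckap2 changed by -2.42, -1.80 and -1.66 in LPS+NaBu against LPS cells. Hmmr thus fell most of the 5 in that comparison, while in LPS against control cells Nusap1 did (-0.91, against -0.51 for Hmmr).

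The cytokinesis genes differed in where the fall took place. Racgap1, a subunit of the central spindle complex that recruits Ect2, had normalised counts of 3102, 3133 and 2919 in LPS+NaBu libraries, 4805, 4927 and 5218 in LPS libraries and 9836, 10213 and 10292 in control libraries. Most of its fall was already present in LPS cells, with -1.02 ± 0.047 in LPS against control cells (adjusted p = 7.94e-10) and -0.71 ± 0.047 in LPS+NaBu against LPS cells (adjusted p = 1.15e-08). Ect2, the exchange factor that activates RhoA for the contractile ring, showed the reverse, -0.48 ± 0.11 in LPS against control cells and -2.22 ± 0.11 in LPS+NaBu against LPS cells. Anln, a scaffold of the ring, fell in both. It had 1183, 1219 and 1408 in LPS+NaBu libraries, 5865, 4981 and 5806 in LPS libraries and 10677, 11001 and 10644 in control libraries, with -2.13 ± 0.073 in LPS+NaBu against LPS cells (adjusted p = 1.55e-11) and -0.96 ± 0.073 in LPS against control cells (adjusted p = 1.24e-07). Whether these genes differ from one another was not tested.

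The transcription factors of the late cell cycle were among the deepest falls. Foxm1 had normalised counts of 556, 568 and 505 in LPS+NaBu libraries, 3246, 3312 and 3408 in LPS libraries and 6083, 6316 and 6700.1 in control libraries. The level in LPS+NaBu cells was 16.3% of that in LPS cells and 8.53% of that in control cells, with log2 changes of -2.61 ± 0.058 (adjusted p = 3.50e-13) and -3.55 ± 0.058 (adjusted p = 2.78e-14), and -0.94 ± 0.058 in LPS against control cells (adjusted p = 1.60e-08). Mybl2 (B-Myb) followed closely. It had 912, 847 and 844 in LPS+NaBu libraries, 4648, 4951 and 5076 in LPS libraries and 9024, 8831 and 9404 in control libraries, with -2.49 ± 0.051 in LPS+NaBu against LPS cells (adjusted p = 1.90e-13) and -0.89 ± 0.051 in LPS against control cells (adjusted p = 7.74e-09). Fam64a, which current annotation names Pimreg (PICALM interacting mitotic regulator), had 238, 236 and 243 in LPS+NaBu libraries, 2281, 2469.6 and 2096 in LPS libraries and 4359, 4187 and 4296 in control libraries, and its log2 change of -3.25 ± 0.064 in LPS+NaBu against LPS cells (adjusted p = 1.38e-13) was second only to that of Fbxo5 among the 49 genes.

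Levels between genes were compared per kilobase of the main transcript of the GENCODE annotation. On this scale Ube2c (6567 normalised counts per kilobase), Birc5 (5827) and Top2a (4539) led in control cells, and Plk4 was lowest in control cells (325) and in LPS cells (302). In LPS+NaBu cells the per-kilobase level was 1509 for Ube2c, 1219 for Birc5 and 822 for Top2a. The order depended on the length used, since per kilobase of all merged exons Tpx2 (3504), Cdc20 (2757) and Top2a (2613) led in control cells, with Ube2c at 1959 and Birc5 at 1256, while Plk4 was again lowest (139). Several main transcripts share exon bases with a gene on the other strand, 44.7% for Cks2, 43.2% for Aurka, 39.0% for Ncapg, 32.9% for Prc1, 30.6% for Plk4 and 24.1% for Ccna2, so their counts are less certain. Replicates were close, with a median coefficient of variation over the 49 genes of 4.56% in LPS+NaBu, 5.01% in LPS and 3.01% in control libraries.

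The other genes of the pathway were followed as 118 genes in 7 lists by function. Of the 117 tested, 90 fell, 18 rose and 9 were not called in LPS+NaBu against LPS cells, with a median log2 change of -0.68, where 37.8% of all genes tested fell and 40.2% rose. Against control cells 90 fell, 14 rose and 13 were not called in LPS+NaBu cells (median -1.001), where 35.1% of all genes tested fell and 40.9% rose. In LPS against control cells 74 fell, 14 rose and 29 were not called (median -0.32), where 30.8% of all genes tested fell and 25.2% rose. With libraries scaled to the same sum, 76 fell and 24 rose in LPS+NaBu against LPS cells (median -0.40), where 27.9% of all genes tested fell, and 97 fell and 7 rose in LPS against control cells (median -0.54), where 47.8% of all genes tested fell. The lists were drawn up with results of these data known, so their counts are descriptions.

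Cohesin holds sister chromatids together until anaphase. Of 15 cohesin genes and regulators, 13 fell and 2 rose in LPS+NaBu against LPS cells, beside 37.8% and 40.2% of all genes tested. Sgol1 (shugoshin 1) is the protector of centromeric cohesion. It averaged 139 ± 15.5 normalised counts in LPS+NaBu cells and 947 ± 83.0 in LPS cells (SD, n = 3 each). Its log2 change was -2.76 ± 0.095, whereas Mau2, of the cohesin loader, rose by 0.45. Of 32 further centromere and kinetochore genes 25 fell and 4 rose, beside the same shares of all genes tested. Trip13, the ATPase that takes apart Mad2 complexes, averaged 247 ± 11.6 in LPS+NaBu cells and 1393 ± 50.5 in LPS cells (log2 change -2.49 ± 0.067). Mad1l1 (Mad1), the kinetochore partner of Mad2, moved the other way, with 4020.4 ± 218 in LPS+NaBu cells and 1479 ± 127 in LPS cells (log2 change 1.44 ± 0.068, adjusted p = 3.60e-10), and it was lower in LPS than in control cells (-0.86 ± 0.068). The largest fall of this list in LPS against control cells was that of Cenpn (-1.04), and the largest rise that of Cenpw (0.29, adjusted p = 0.0402), which was not called with libraries scaled to the same sum (0.068, adjusted p = 0.608).

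Mitotic entry control held 12 tested genes, of which 10 fell and 1 rose in LPS+NaBu against LPS cells. Of all genes tested, 37.8% fell and 40.2% rose there. Gtse1 averaged 432 ± 36.6 normalised counts in LPS+NaBu cells and 2792 ± 237 in LPS cells (log2 change -2.69 ± 0.076), and Arpp19, an inhibitor of the phosphatase PP2A at mitotic entry, rose by 0.39. In LPS against control cells Ccnf (cyclin F), the substrate adaptor of a ubiquitin ligase, changed most downward (-0.90) and Ppp2r2a, a PP2A subunit, most upward (0.65). Of 27 other spindle, centrosome and cytokinesis genes, 20 fell and 4 rose in LPS+NaBu against LPS cells, beside 37.8% and 40.2% of all genes. The spindle pole gene Aspm changed by -2.05 ± 0.11 and Tubg1, a gamma-tubulin that nucleates microtubules, by 0.94 ± 0.058 (adjusted p = 5.99e-09). All 3 condensin II genes fell, Ncapg2 most (-1.09 ± 0.077).

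The subunits of the APC/C itself were mixed. Of 16 genes, 10 fell and 5 rose in LPS+NaBu against LPS cells, with a median of -0.38. Of all genes tested, 37.8% fell and 40.2% rose there. With libraries scaled to the same sum, 8 of the 16 fell and 6 rose (median -0.10), where 27.9% of all genes tested fell. Anapc15 changed by -1.21 ± 0.10 and Anapc7 by 0.80 ± 0.046. In LPS against control cells 6 fell and 4 rose, near the 30.8% lower and 25.2% higher of all genes tested, with Ube2s, the enzyme that extends ubiquitin chains for the APC/C, highest (0.51) and Anapc11, its catalytic subunit, lowest (-0.31). With libraries scaled to the same sum, 12 fell and 2 rose in that comparison, where 47.8% of all genes tested fell. Of 12 genes of the MuvB and DREAM complexes and of NF-Y, 9 fell and 2 rose in LPS+NaBu against LPS cells. The shares of all genes tested were again 37.8% and 40.2%. Lin9, of the MuvB core, changed by -1.57 ± 0.11, and Rbl2 (p130), the pocket protein of the repressor complex DREAM in resting cells, by 1.26 ± 0.086 (adjusted p = 1.61e-08). Rbl2 averaged 1492 ± 65.8 normalised counts in LPS+NaBu cells, 627 ± 82.8 in LPS cells and 1585 ± 46.6 in control cells, a log2 change of -1.34 ± 0.086 in LPS against control cells, and the difference between LPS+NaBu and control cells was not called (adjusted p = 0.37).

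The gene of each list with the largest fall in LPS+NaBu against control cells was taken, which gave Sgol1 (-3.46), Gtse1 (-3.16), Aspm (-3.08), Trip13 (-2.89), Ncapg2 (-1.83), Tfdp1, a partner of E2F factors (-1.71), and Anapc15 (-1.32). The gene with the largest rise in each list, where one rose, was Cenpj (0.89), Anapc7 (0.73), Mad1l1 (0.58), Lin37 of the MuvB core (0.53), Mau2 (0.42) or Arpp19 (0.24). Some lists held further genes that rose. In LPS against control cells Aspm (-1.02), Esco2, a cohesin acetyltransferase (-0.995), and Ncapg2 (-0.74) fell most in their lists and Wapal, which releases cohesin, rose most in its own (0.33), a rise that was not called with the same sum (0.10) or with quantile normalisation (0.14). Lin52 had the highest estimate of the MuvB, DREAM and NF-Y list in that comparison without being called (0.19, adjusted p = 0.148), and its sign turned with the same sum (-0.040).

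**Figure D4:**
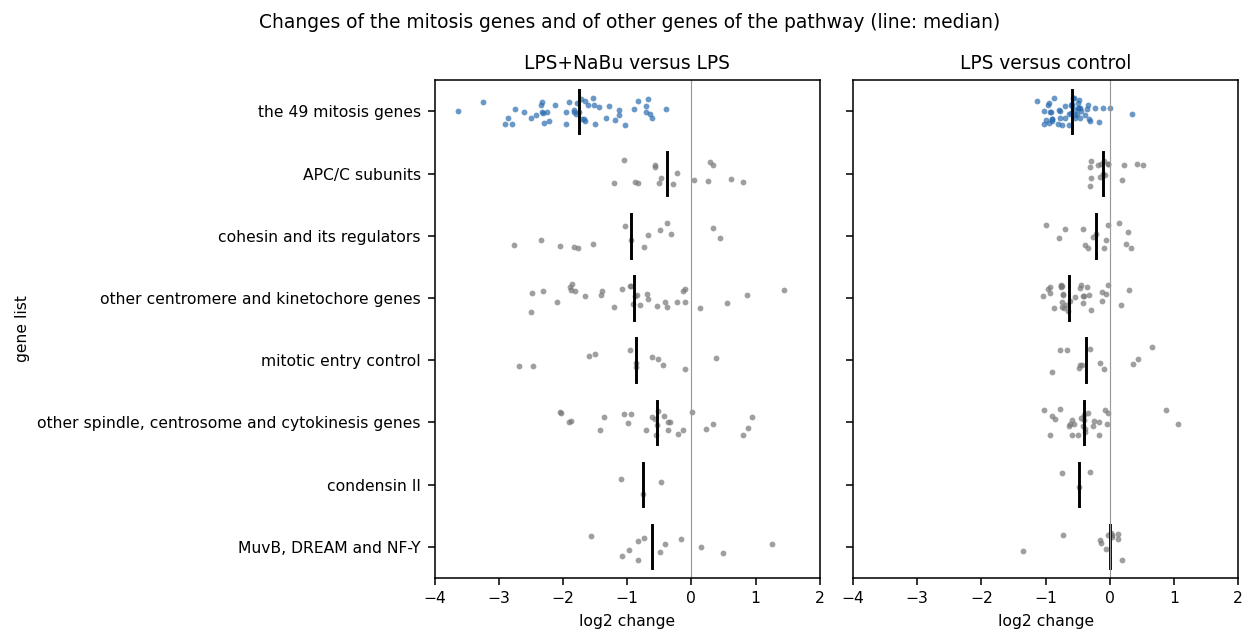
Each point is the log2 change of 1 gene, in LPS+NaBu against LPS cells (left) and LPS against control cells (right), for the 49 mitosis genes (top row) and the 7 lists of other pathway genes, with black lines at the medians. The mitosis genes all lie left of 0 in the left panel (median -1.75), and the APC/C subunits lie on both sides (median -0.38).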

How the data were processed

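RNA was sequenced from 9 RAW264.7 libraries, 3 a group. The authors deposited 1 table per library, headed FPKM, whose values are a signal proportional to read counts: all were whole multiples, within 0.001, of 1 step per library, equal to the inverse of a DESeq2 size factor, and do not depend on gene length. The mm39 build, STAR 2.7.7a and DESeq2 appear in the notes the submitters gave on processing, and the study's methods name HISAT2 and featureCounts. The kit was directional, and the sources used here do not say whether counting used the strand. Levels per kilobase were planned on merged exons and are given on main transcripts too, chosen after the merged lengths were seen to be inflated by many isoforms. Genes with at least 10 in at least 3 libraries (14808) were tested on log2(value + 1), which slightly understates changes of low genes, with limma 3.58.1 (trend, R 4.3.3), all 9 libraries in 1 model and Benjamini-Hochberg adjustment, and called at an adjusted p under 0.05. edgeR 4.0.16 and DESeq2 1.42.0 on the recovered reads, other scalings, pseudocounts, filters, a replicate block and leaving out each library were alternatives. The tests were checked on simulated data in which few genes changed, which cannot check the choice of scaling. Coordinates of promoters are of GRCm38.p6. The genes and lists were chosen with earlier results of these data known. Values per library were given for the 8 genes with the largest change in each comparison, for genes not called or called against the majority, and for Cdk1, Ccnb1, Bub1, Ttk, Aurkb, Plk1, Top2a, Foxm1 and Mybl2. Values for Bub3 were added after its values were seen.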

Additional observations from a re-analysis of the deposited data

How the results depend on the processing

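Over 20 alternatives and 3 comparisons, 2937 of 2940 changes of the 49 genes kept their side of the threshold and, where called, their direction. Leaving out a library of the group outside a comparison cannot move its log2 changes, so part of this agreement was set in advance. A change called in neither fit was counted as kept whatever its sign. The other 3 arose with libraries scaled to the same sum, in LPS against control cells: Plk4 was called lower (-0.33), Pttg1 was no longer called (0.12), and Cenpe turned to -0.22, so that 0 genes were called higher. The median log2 change of the 49 genes was -1.85 with edgeR and -1.48 with the same sum in LPS+NaBu against LPS cells, and -0.82 with the same sum and -0.70 with quantile normalisation in LPS against control cells. With edgeR the median shift over all genes was -0.10 in LPS+NaBu against LPS cells. The same-sum scaling lowers LPS values by construction, since LPS libraries had the largest sums, and the cause of the other shifts was not tested. Leaving out 1 library moved the median in LPS+NaBu against control cells between -2.45 and -2.34. With the replicate block, 49 genes were called lower in LPS+NaBu against LPS cells and 46 in LPS against control cells, as without it. Correlations of deviations between same-numbered libraries were -0.044 to 0.020, so no pairing by number was detected. They cannot exclude a pairing hidden by scatter between libraries. Fbxo5, at 68 to 103 reads in LPS+NaBu libraries, has the fewest reads behind its value.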

Other observations

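Sass6 and Cenpj, named here after their values were seen, were higher in LPS than in control cells. Sass6, which builds the centriole cartwheel, averaged 723 ± 69.5 normalised counts in LPS+NaBu cells, 2723 ± 232 in LPS cells and 1307 ± 75.8 in control cells (SD, n = 3 each), with log2 changes of -1.91 ± 0.083 in LPS+NaBu against LPS cells and 1.06 ± 0.083 in LPS against control cells (adjusted p = 1.75e-07). Cenpj, which sets centriole length, averaged 1220.5 ± 119 in LPS+NaBu cells, 1205 ± 37.9 in LPS cells and 657 ± 7.48 in control cells. It was higher in LPS than in control cells (0.87 ± 0.073, adjusted p = 3.25e-07) and showed a log2 change of 0.015 ± 0.073 in LPS+NaBu against LPS cells (adjusted p = 0.861), which became 0.29 with libraries scaled to the same sum (adjusted p = 0.00402).

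Within the LPS group, replicate 3 held the highest value for 30 of the 49 mitosis genes and the lowest for 3, with a median ratio of 1.06 to the other 2 libraries. In the other groups no library held the highest value for more than 20 of the 49.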
